A study of Mus musculus with 15 samples.

Results

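Fatty acid oxidation and lipolysis were followed through 34 genes, chosen by symbol from the 55228 genes listed in each table. Of these, 20 encode the mitochondrial oxidation pathway, 5 peroxisomal oxidation, 5 lipases, 2 fatty acid binding proteins and 2 PPAR receptors. RNA was sequenced from 81K1 cells, a mouse embryonic stem cell (ESC) line made from OG2 cells. It carries an shRNA against Smarcb1 in the Rosa26 locus behind a doxycycline-dependent promoter, and it goes back to a single selected clone, K1. Smarcb1 belongs to the BAF complex, which moves nucleosomes. All cells grew on gelatine in serum medium with LIF. The 48 h kd, 72 h kd and 240 h kd groups received 1 µg doxycycline per ml each day for that time, and the 48 h ctrl and 240 h ctrl groups carried the same shRNA cassette without doxycycline. Each of these 5 groups held 3 libraries. No doxycycline-treated line lacking the shRNA was analysed here, so effects of the drug and of the knockdown on RNA cannot be told apart. In the paper's growth tests, doxycycline did not affect the parental OG2 cells.

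Cells burn fatty acids mainly in mitochondria, where the carnitine shuttle carries long acyl chains across the membranes and a repeating cycle of dehydrogenation, hydration, dehydrogenation and thiolysis releases acetyl-CoA. Electrons from the first step pass through the electron transfer flavoproteins to the respiratory chain. Peroxisomes shorten very long and branched chains, lipases free fatty acids from stored or circulating triglyceride, binding proteins carry them through the cytosol, and PPAR receptors are fatty acid sensors that switch on many of these genes. ESCs in serum and LIF are usually described as relying strongly on glycolysis.

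Library totals lay between 11074998 and 14515300 reads. Smarcb1 was at 15.7% to 19.3% of its control mean in the 3 kd groups. All 8 ESC markers had a mean of at least 1 FPKM in every group, and their summed level was 2313 to 2407 FPKM in the 72 h kd libraries against 1531 to 1643 in 48 h ctrl. Dppa5a carried this difference, at a mean of 1570 FPKM against 765 FPKM. Of the 8, 1 lay above all control libraries and 6 below them at 48 h (Dppa5a above, Pou5f1 overlapping), and the same held at 240 h. At 72 h Dppa5a, Sox2 and Nanog lay above and Esrrb, Zfp42, Klf4 and Tbx3 below. Klf4 averaged 89.2 FPKM in the 48 h controls, 48.8 FPKM after 48 h and 52.5 FPKM after 72 h of knockdown, and at 240 h 36.1 FPKM with knockdown and 83.4 without. Of the 5 adipocyte markers none reached 0.5 FPKM in any group, with Fabp4 at 0 in every library. Adipoq lay above the controls at 240 h, with 6, 4 and 9 reads against 0, 0 and 1. The 7 primitive endoderm markers all stayed under 1 FPKM. Sox7 lay below the controls at all 3 times, and Gata4, Gata6, Dab2 and Pdgfra above them at 240 h, each under 0.1 FPKM on average. Of the 5 trophoblast markers only Tfap2c reached 1 FPKM, with means of 8.77 FPKM in the 48 h controls, 5.69 FPKM after 48 h and 16.6 FPKM after 72 h of knockdown. At 240 h it averaged 11.5 FPKM with knockdown and 7.33 FPKM without. Eomes lay below the controls at all 3 times, and at 240 h Cdx2 (0.329 FPKM after knockdown, 0.070 in the controls) and Hand1 (0.856 and 0.098 FPKM) lay above. The 6 fibroblast markers all stayed under 1 FPKM on average, with Col1a1 above the controls and Thy1 below them at all 3 times. At 240 h Col1a2, Col3a1 and Postn also lay above, and Col1a1 averaged 0.923 FPKM with knockdown and 0.261 FPKM without. The part of these shifts in the results was not tested. Mitochondrially encoded transcripts took 0.469% to 2.35% of reads, with the highest share in 48 h kd replicate 2 and the lowest in 240 h ctrl replicate 3. These 2 libraries also stood apart from their groups over all genes. The chi-square per degree of freedom was 11.3 and 9.15 between 48 h kd replicate 2 and its partners, against 1.51 between those partners, and 8.89 and 5.02 for 240 h ctrl replicate 3, against 2.23. In bulk RNA, fewer cells expressing a gene and less RNA per cell cannot be told apart. The labels do not say whether replicates were separate cultures, so p-values measure only the spread between these libraries.

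The pathway was transcribed at very unequal levels. Scaled to exon length and library size and averaged over all 15 libraries, Etfa stood at 53.3 RPKM, Fabp3 at 49.4, Etfb at 49.0, Hsd17b4 at 32.0 and Acadm at 25.1. At the other end were Ppara at 0.095, Mgll at 0.317, Lpl at 0.669 and Acox3 at 0.685 on the same scale. Etfa and Etfb, the subunits of the electron transfer flavoprotein, and the medium-chain dehydrogenase Acadm were thus among the abundant members, with Etfdh at 3.78. The fatty acid sensor Ppara, the monoglyceride lipase Mgll and the extracellular lipase Lpl were near the floor. Exon length means all annotated exons of a gene merged, 1835 bases for Etfa, 1164 for Etfb and 7505 for Etfdh. Their mean reads were 1222, 713 and 356, so part of these gaps comes from the length. Etfb shares 99.7% of its span with the annotated gene Etfbl, and their reads cannot be told apart. The deposited FPKM divide by the whole gene span including introns, so they are used below only to compare a gene with itself. Of the 34 members, 28 had a mean of at least 0.5 FPKM in every comparison and were tested on log2(FPKM + 0.1) with limma. The 6 below it were Acox3, Ehhadh, Lpl, Lipa, Mgll and Ppara. Of these 6, all but Ppara had enough reads for a second test, limma voom on the whole reads recovered from the FPKM, which took in 33 members. A gene is called where its adjusted p was under 0.05 and its log2 fold change was beyond 0.58 in either direction, the thresholds the study used.

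Stretches beside the annotated RefSeq starts of 5 members called after knockdown, and the gap between the paired genes Hadha and Hadhb, are printed to show the promoter DNA of these genes. They are RefSeq sequences on GRCm38.p6, 5′ to 3′ on the gene's strand (the Hadha and Hadhb gap on the plus strand) and hold no base of an exon annotated in GENCODE. The Cpt1a stretch lies before the RefSeq start at 3323301 but inside the longer gene span listed in the files, which begins at 3322334. Capitals mark AGGTCA, the hexamer bound by PPAR and other nuclear receptors, or GGGCGG, the GC box, each on either strand.
Cpt1a, chr19:3323051-3323284, plus strand: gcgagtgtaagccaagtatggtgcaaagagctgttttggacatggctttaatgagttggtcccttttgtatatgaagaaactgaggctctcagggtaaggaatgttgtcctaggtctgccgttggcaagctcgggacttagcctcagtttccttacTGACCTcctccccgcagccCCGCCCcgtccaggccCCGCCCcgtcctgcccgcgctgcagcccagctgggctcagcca
Slc25a20, chr9:108661886-108662087, plus strand: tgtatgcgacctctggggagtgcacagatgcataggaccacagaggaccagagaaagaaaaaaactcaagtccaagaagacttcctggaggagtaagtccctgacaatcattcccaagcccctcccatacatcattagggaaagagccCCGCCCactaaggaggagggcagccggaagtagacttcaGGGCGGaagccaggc
Acadvl, chr11:70015429-70015678, minus strand: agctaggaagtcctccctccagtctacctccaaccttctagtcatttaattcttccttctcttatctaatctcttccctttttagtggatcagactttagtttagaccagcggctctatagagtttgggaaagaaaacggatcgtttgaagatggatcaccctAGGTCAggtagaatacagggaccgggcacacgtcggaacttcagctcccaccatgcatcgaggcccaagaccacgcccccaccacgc
Acads, chr5:115119347-115119596, minus strand: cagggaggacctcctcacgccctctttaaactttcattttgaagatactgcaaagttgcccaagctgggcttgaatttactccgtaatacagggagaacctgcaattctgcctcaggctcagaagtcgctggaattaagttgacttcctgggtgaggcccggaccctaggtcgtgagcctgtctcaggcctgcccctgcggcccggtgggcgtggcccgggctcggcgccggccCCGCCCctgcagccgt
Decr2, chr17:26090338-26090414, minus strand: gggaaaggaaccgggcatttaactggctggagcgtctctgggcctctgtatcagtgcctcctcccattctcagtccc
Hadha and Hadhb, chr5:30155163-30155247, plus strand: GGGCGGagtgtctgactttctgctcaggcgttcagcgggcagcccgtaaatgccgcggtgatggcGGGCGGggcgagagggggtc

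Hadha and Hadhb, the subunits of the mitochondrial trifunctional protein, are transcribed away from each other out of this gap of 85 bases, which holds GGGCGG at either side. Cpt1a and Acadvl each had 1 AGGTCA in the printed stretch. Over windows of 300 bases, from 250 before to 50 after each start, 28 of the 34 members had a RefSeq entry, in 30 windows. AGGTCA was in 5 of the 30 (16.7%) and in 16.3% of all 32851 windows, so the members held it at close to the share of all genes. The DR1 motif of PPAR receptors, 2 AGGTCA with any base between, was in 0 of 30 member windows and in 0.0396% of all windows. GGGCGG was in 25 of 30 (83.3%) against 35.7%, the E-box CACGTG in 2 of 30 (6.67%) against 7.15% and CCAAT in 11 of 30 (36.7%) against 37.4%. These matches are letters in a window and not shown sites. Lpl, Acaa2, Fabp5, Hsd17b4, Acat1 and Decr1 had no entry.

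At 48 h, Acat1 rose and Fabp5 fell, and the other 26 tested members were not called (2 of 28, against 3.99% of all genes tested, 1.99% higher and 2.01% lower). The groups did not overlap for 14 of the 28 (39.4% of all genes). The median log2 change of the 28 was -0.05 against 0.01 over all genes. Acat1 (chr9:53580522-53610382), the mitochondrial acetoacetyl-CoA thiolase used in ketone body and isoleucine breakdown as well, read 0.718, 0.698 and 0.642 FPKM in 48 h ctrl and 1.19, 1.03 and 1.17 FPKM in 48 h kd. All kd libraries lay above all ctrl libraries. The log2 fold change was 0.65 ± 0.080 (SE; limma, adjusted p = 0.00647). Fabp5 (chr3:10012548-10016607), an intracellular fatty acid carrier, read 4.99, 5.24 and 4.81 FPKM in 48 h ctrl and 3.10, 2.50 and 3.11 FPKM in 48 h kd. The groups did not overlap, and the log2 fold change was -0.77 ± 0.095 (limma, adjusted p = 0.00628). Fabp5 is a short gene with processed copies elsewhere in the genome, so reads could be split between them and its level is uncertain. Without 48 h kd replicate 2 the log2 fold changes were 0.71 for Acat1 and -0.67 for Fabp5, both still called. With a pseudocount of 1, Acat1 was no longer called, and with the replicate number as a block neither gene was called.

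Hadh, the short-chain hydroxyacyl-CoA dehydrogenase, and Acadl, the long-chain acyl-CoA dehydrogenase, had adjusted p-values under 0.05 in limma at 48 h but stayed inside the fold threshold. Hadh was at 72.6% and Acadl at 75.9% of the 48 h ctrl mean, with log2 fold changes of -0.44 ± 0.081 and -0.36 ± 0.070. At 72 h their log2 fold changes were 0.03 ± 0.067 for Hadh and -0.05 ± 0.050 for Acadl.

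At 72 h, 6 of 28 tested members were called (against 13.5% of all genes), 5 of them higher (8.23% of all genes) and 1 lower (5.3%). For 22 of the 28 the groups did not overlap (64.7% of all genes). Acat1, Fabp3, Acads, Acadvl and Decr2 rose, and Fabp5 fell. The median change was 0.16 against 0.01 over all genes. Of 20 mitochondrial members 14 were on the positive side, a count that takes in Eci2 at 0.01 ± 0.074 and Hadh at 0.03 ± 0.067. No 72 h control was analysed here, and 48 h ctrl served instead, so the 48 h and 72 h comparisons share their controls.

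**Figure D1:**
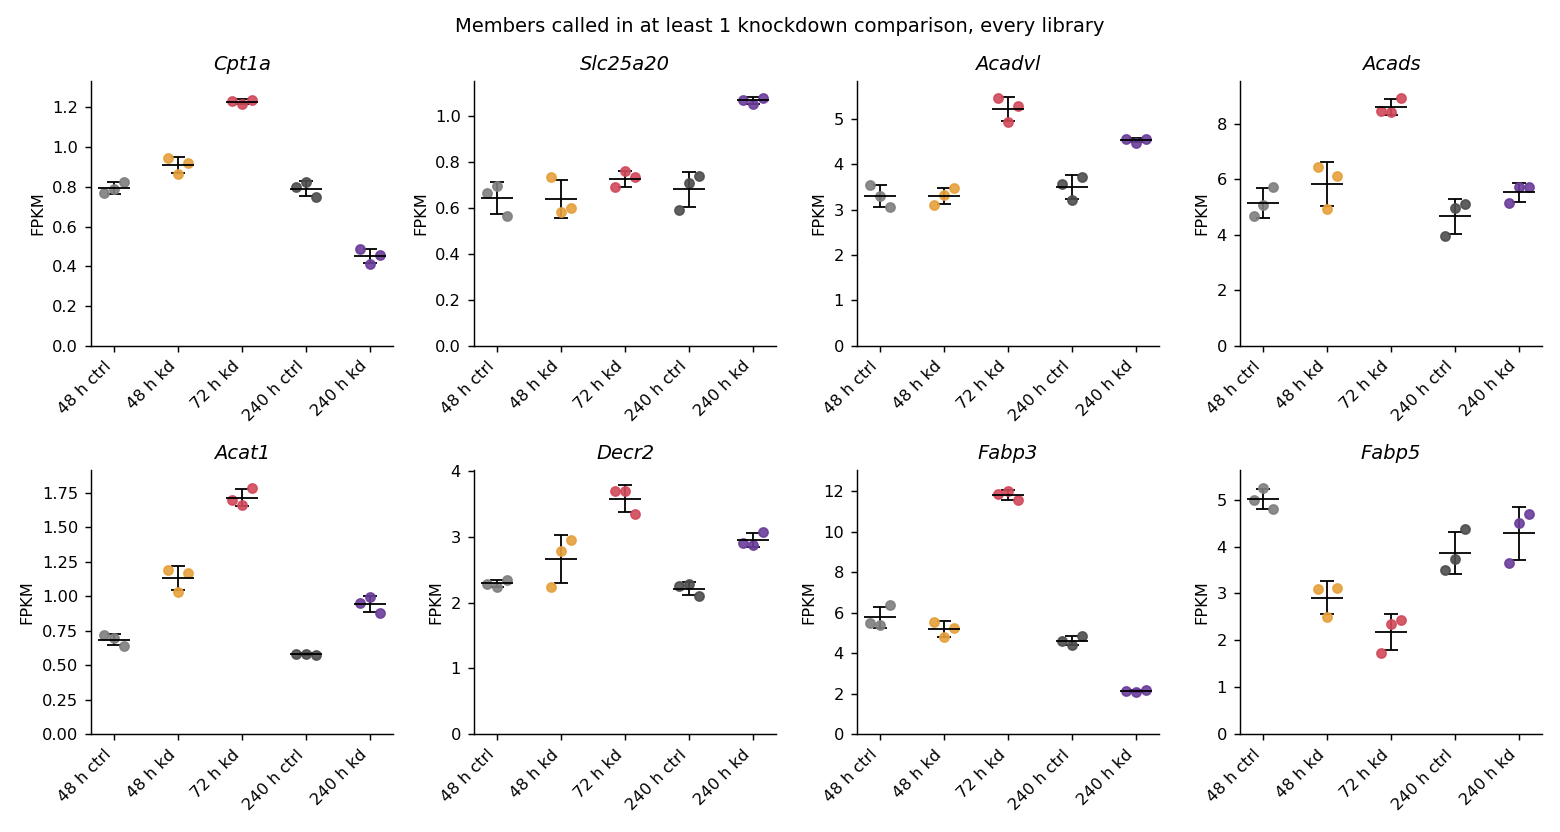
FPKM (y axis, from 0) in every library of the 5 groups (x axis) for the 8 members called in a knockdown comparison. Points are libraries, bars the mean and SD of 3. Acat1 was above its control at all 3 times, whereas Fabp3 and Cpt1a were highest at 72 h and lowest at 240 h.

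Acat1 reached 1.69, 1.66 and 1.78 FPKM in 72 h kd, which is 249.6% of the 48 h ctrl mean, and all 3 libraries lay above every 48 h kd library. Its log2 fold change was 1.21 ± 0.055 (limma, adjusted p = 6.32e-05). Fabp3 (chr4:130308595-130315463), the heart-type fatty acid binding protein, read 5.52, 5.42 and 6.38 FPKM in 48 h ctrl and 11.9, 12 and 11.6 FPKM in 72 h kd. It stood at 205% of the control mean, the groups did not overlap, and the log2 fold change was 1.03 ± 0.067 (limma, adjusted p = 0.000167). At 48 h Fabp3 had read 5.56, 4.79 and 5.23 FPKM in kd, a range that overlapped the control's. Fabp5 read 1.73, 2.35 and 2.43 FPKM in 72 h kd, with a log2 fold change of -1.18 ± 0.13 (limma, adjusted p = 0.000905). The carriers Fabp3 and Fabp5 therefore stood on opposite sides of the control.

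Among the acyl-CoA dehydrogenases, which open each round of the cycle, the members for the longest and the shortest chains rose. Acads, for short chains, read 4.67, 5.06 and 5.73 FPKM in 48 h ctrl and 8.46, 8.42 and 8.93 FPKM in 72 h kd (log2 fold change 0.73 ± 0.078, limma, adjusted p = 0.000791). Acadvl, for very long chains, read 3.54, 3.29 and 3.06 FPKM in ctrl and 5.45, 4.94 and 5.29 FPKM in 72 h kd (0.65 ± 0.065, adjusted p = 0.000658). Neither gene overlapped between groups. Acadm and Acadl, for medium and long chains, had log2 fold changes of -0.15 ± 0.037 and -0.05 ± 0.050 and were not called. Acadvl shares 40.5% of its span with Dvl2, which had more reads and went from 10.1 to 12.5 FPKM on average, so the origin of the shared reads cannot be told apart. With 240 h ctrl as the control, Acadvl had a log2 fold change of 0.566 and was not called.

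Decr2, the peroxisomal dienoyl-CoA reductase that prepares unsaturated chains, read 2.28, 2.24 and 2.35 FPKM in 48 h ctrl and 3.70, 3.69 and 3.34 FPKM in 72 h kd (log2 fold change 0.62 ± 0.049, limma, adjusted p = 0.000294). Its mitochondrial counterpart Decr1 had 0.43 ± 0.064 and stayed within the fold threshold. With a pseudocount of 1 neither Decr2 nor Acadvl was called. Cpt1a (chr19:3322334-3385733), which sets the pace of long-chain entry into mitochondria, read 0.768, 0.790 and 0.826 FPKM in 48 h ctrl and 1.23, 1.22 and 1.24 FPKM in 72 h kd, at 154.6% of the control mean. Its log2 fold change of 0.571 ± 0.044 fell just short of the threshold on FPKM and passed it on recovered reads (0.63 ± 0.050, limma voom, adjusted p = 9.24e-11).

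Not every mitochondrial member leaned upward at 72 h. Hadha read 3.46, 3.50 and 3.52 FPKM in 48 h ctrl and 2.84, 2.85 and 2.7 FPKM in 72 h kd. Hadhb read 1.02, 1.08 and 1.07 FPKM in ctrl and 0.820, 0.745 and 0.706 FPKM in 72 h kd. The partners were lower in every kd library than in every ctrl library, with log2 fold changes of -0.31 ± 0.032 and -0.44 ± 0.065, inside the fold threshold (limma, adjusted p = 0.000685 and 0.00269). Etfb, the beta subunit of the electron transfer flavoprotein, stood at 69.4% of the control mean (log2 fold change -0.52 ± 0.039), while its partner Etfa was at 105%. Cpt1c, Cpt2, Acaa2, Hsd17b4, Pnpla2 and Ppard also had an adjusted p under 0.05 in limma inside the fold threshold, all on the positive side, at 0.24 to 0.46. On the negative side Acadm did too, at -0.15 ± 0.037 (limma, adjusted p = 0.0174), with every kd library below every ctrl library. Etfb shares 99.7% of its span with the annotated gene Etfbl, so their reads cannot be told apart.

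**Figure D2:**
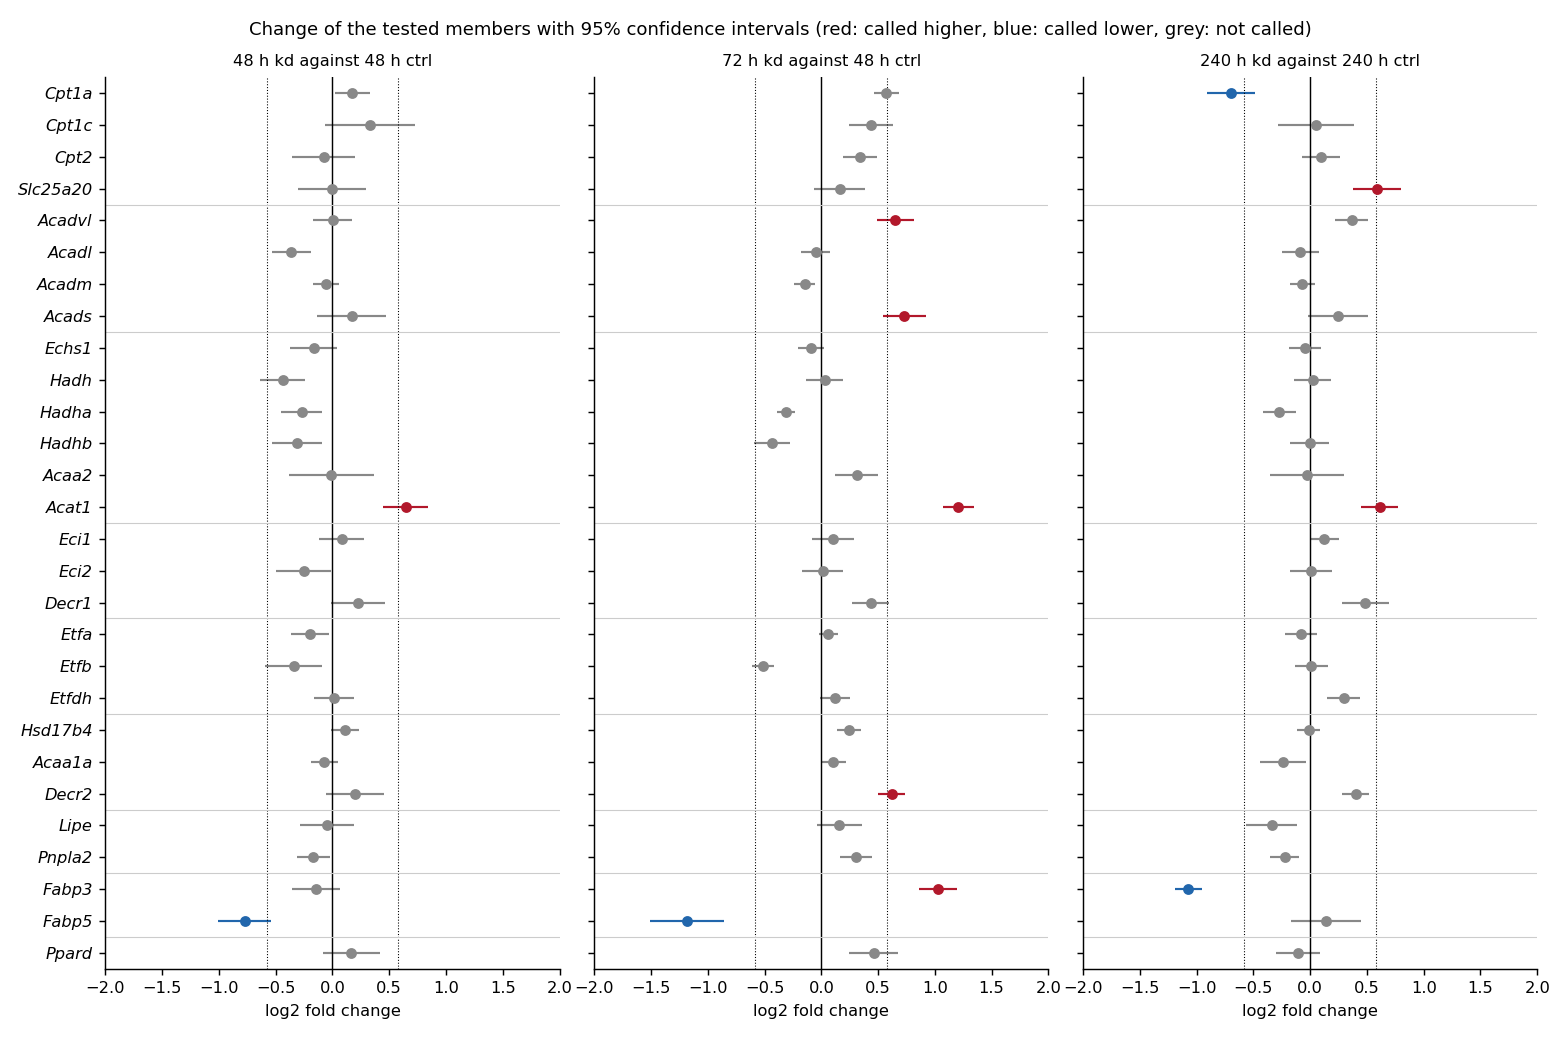
Log2 fold change (x axis) with 95% confidence interval for the 28 tested members (y axis, ordered by role) in the 3 knockdown comparisons. Dotted lines mark 0.58 in both directions. Calls numbered 2 at 48 h, 6 at 72 h and 4 at 240 h, and Acat1 was the only member called at all 3 times.

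At 240 h, 4 of 28 tested members were called (against 8.91% of all genes), with Acat1 and Slc25a20 higher (4.79% of all genes) and Cpt1a and Fabp3 lower (4.12%). The groups did not overlap for 15 of the 28 (50.2% of all genes), and the median change was 0.00. Fabp3 read 4.60, 4.42 and 4.88 FPKM in 240 h ctrl and 2.14, 2.09 and 2.21 FPKM in 240 h kd, so the gene that was above its control at 72 h was now below it (log2 fold change -1.07 ± 0.048, limma, adjusted p = 0.000111). Cpt1a read 0.800, 0.826 and 0.749 FPKM in ctrl and 0.485, 0.412 and 0.456 FPKM in kd, at 57.0% of the control mean (-0.70 ± 0.085, adjusted p = 0.00252). Neither gene overlapped between groups.

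Slc25a20 (chr9:108662088-108684641), the carrier that exchanges acylcarnitine for carnitine, read 0.592, 0.709 and 0.738 FPKM in 240 h ctrl and 1.07, 1.05 and 1.08 FPKM in 240 h kd. Its log2 fold change was 0.59 ± 0.085 (limma, adjusted p = 0.00480). It had been at 99.6% of its control at 48 h and 113% at 72 h. So within the shuttle the entry enzyme and the carrier differed in direction at 240 h, while Cpt2, which reforms acyl-CoA inside, stood at 107% and Cpt1c, the brain-enriched family member, at 103%. Acat1 read 0.584, 0.582 and 0.573 FPKM in 240 h ctrl and 0.950, 0.994 and 0.878 FPKM in kd (0.61 ± 0.066, limma, adjusted p = 0.00161). The calls of Slc25a20 and Acat1 lay close to the fold threshold. That of Slc25a20 was lost without 240 h ctrl replicate 1 (0.502) or 240 h kd replicate 3 (0.578), and that of Acat1 without 240 h kd replicate 2 (0.576). Without 240 h ctrl replicate 3 all 4 members were still called, Fabp3 at -1.04, Cpt1a at -0.73, Slc25a20 at 0.64 and Acat1 at 0.61. With a pseudocount of 1, Fabp3 alone was called at 240 h. Of the 8 ESC markers, 6 were below all controls in these libraries, and their part in the result was not tested.

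Fabp5, so low earlier, read 3.50, 3.74 and 4.37 FPKM in 240 h ctrl and 3.64, 4.50 and 4.70 FPKM in 240 h kd. These ranges overlapped, and the log2 fold change was 0.14 with a 95% interval of -0.17 to 0.45. A further 7 members had an adjusted p under 0.05 in limma at 240 h but stayed inside the fold threshold. On the positive side were Decr1 at 0.49 ± 0.084, Decr2 at 0.40 ± 0.047, Acadvl at 0.37 ± 0.058 and Etfdh, which hands the electrons on to ubiquinone, at 0.30 ± 0.059. On the negative side were Lipe at -0.34 ± 0.091, Hadha at -0.27 ± 0.058 and Pnpla2 at -0.22 ± 0.051. Hadhb was at 99.5% of its control at 240 h, whereas Hadha was at 82.3%.

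The difference between times was tested directly. Between the 240 h and 48 h effects, 4 of 28 members were called (against 5.82% of all genes): Cpt1a at -0.87 ± 0.095, Fabp3 at -0.93 ± 0.10, Fabp5 at 0.91 ± 0.17 and Slc25a20 at 0.59 ± 0.15 on the log2 scale (limma interaction, adjusted p = 0.000259, 0.000262, 0.00520 and 0.0224). The Slc25a20 call was lost in 6 of 12 fits that each left out a library, with log2 values of 0.51 to 0.68 over all 12. The libraries concerned were 48 h kd replicates 2 and 3, 48 h ctrl replicates 1 and 2, 240 h ctrl replicate 1 and 240 h kd replicate 3. Between the 240 h and 72 h effects, with 48 h ctrl standing in for a 72 h control, 4 of 28 were called (against 11% of all genes). Fabp3 differed by -2.10 ± 0.085, Cpt1a by -1.27 ± 0.084, Fabp5 by 1.32 ± 0.19 and Acat1 by -0.59 ± 0.078 (limma interaction, adjusted p = 4.64e-07, 5.61e-06, 0.000552 and 0.000311). The Acat1 call was lost without 48 h ctrl replicate 3 (-0.55), 72 h kd replicate 3 (-0.57) or 240 h kd replicate 3 (-0.55).

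**Figure D3:**
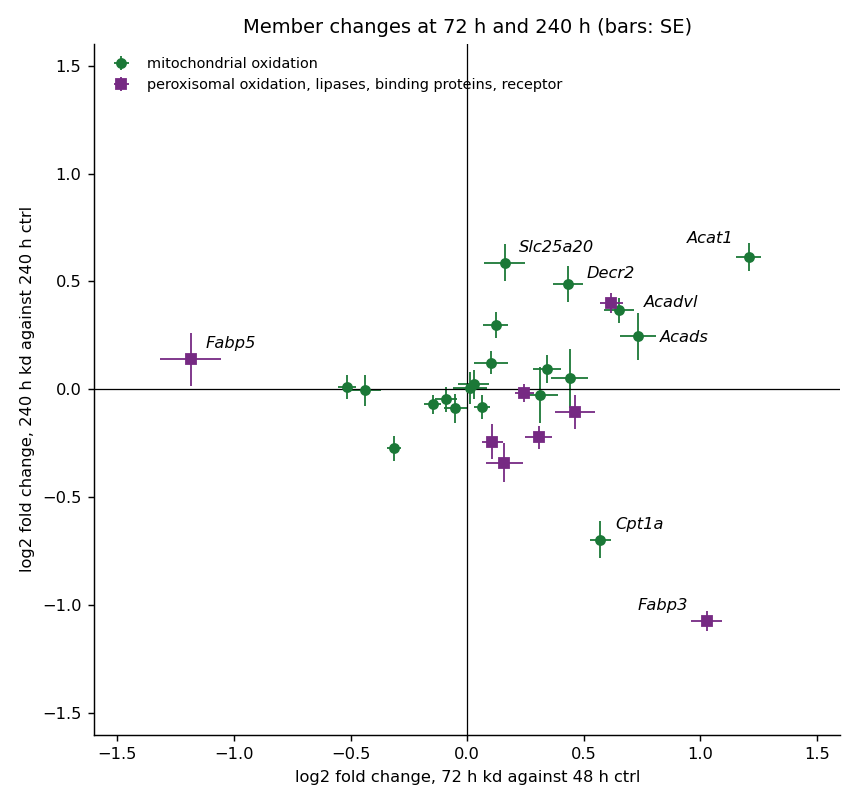
Log2 fold change at 72 h (x axis, against 48 h ctrl) and at 240 h (y axis, against 240 h ctrl) for the 28 tested members, with SE bars. The comparisons share no library. Fabp3 (1.03 and -1.07) and Cpt1a (0.571 and -0.70) sit in the lower right quadrant, and Acat1 (1.21 and 0.61) in the upper right.

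Between 240 h ctrl and 48 h ctrl 0 of 28 members were called (against 0.475% of all genes). In limma 10 of the 28 had an unadjusted p under 0.05 (3013 of 11359 genes), and limma voom on reads called 0 of 33 (1.36% of all genes), with 11 at an unadjusted p under 0.05 (4524 of 16215 genes). Fabp5 stood at 77.2% and Fabp3 at 80.3% of the 48 h ctrl mean. Between kd groups, 72 h against 48 h gave 2 calls (7.45% of all genes), Fabp3 at 1.17 ± 0.061 and Acadvl at 0.65 ± 0.059. Without 48 h kd replicate 1, or without replicate 3, that count was 4. From 72 h kd to 240 h kd, 6 members were called (15.7% of all genes). Fabp3 fell to 18.2% of its 72 h level (-2.41 ± 0.033), Cpt1a to 36.7%, Acat1 to 55.0%, Acads to 64.3% and Pnpla2, the lipase that starts triglyceride breakdown, to 64.2%, while Fabp5 rose by 0.95 ± 0.16 on the log2 scale. The Acads call was lost without 240 h kd replicate 1 (-0.579). In these kd comparisons knockdown time and culture time cannot be told apart.

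Lpl (chr8:68880491-68907448), the lipase that frees fatty acids from circulating lipoproteins, was too low for the FPKM minimum but was lower in all 3 kd groups on recovered reads. It had 143, 122 and 122 reads in 48 h ctrl, 68, 66 and 57 in 48 h kd and 62, 46 and 76 in 72 h kd. In 240 h ctrl it had 117, 98 and 139 reads and in 240 h kd 62, 64 and 63. No kd library reached the lowest ctrl library of its comparison. The log2 fold changes were -0.94 ± 0.12, -1.18 ± 0.14 and -1.03 ± 0.15 at 48 h, 72 h and 240 h (limma voom, adjusted p = 0.000160, 1.71e-07 and 1.94e-05). On recovered reads the background was 9.22%, 22.6% and 18% of all genes, and the members called were 3, 8 and 5 of 33. The calls held without any single library, with log2 fold changes of -1.32 to -0.89 over the comparisons. The difference of the Lpl effect between 240 h and 48 h was -0.08, with a 95% interval of -0.48 to 0.31.

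**Figure D4:**
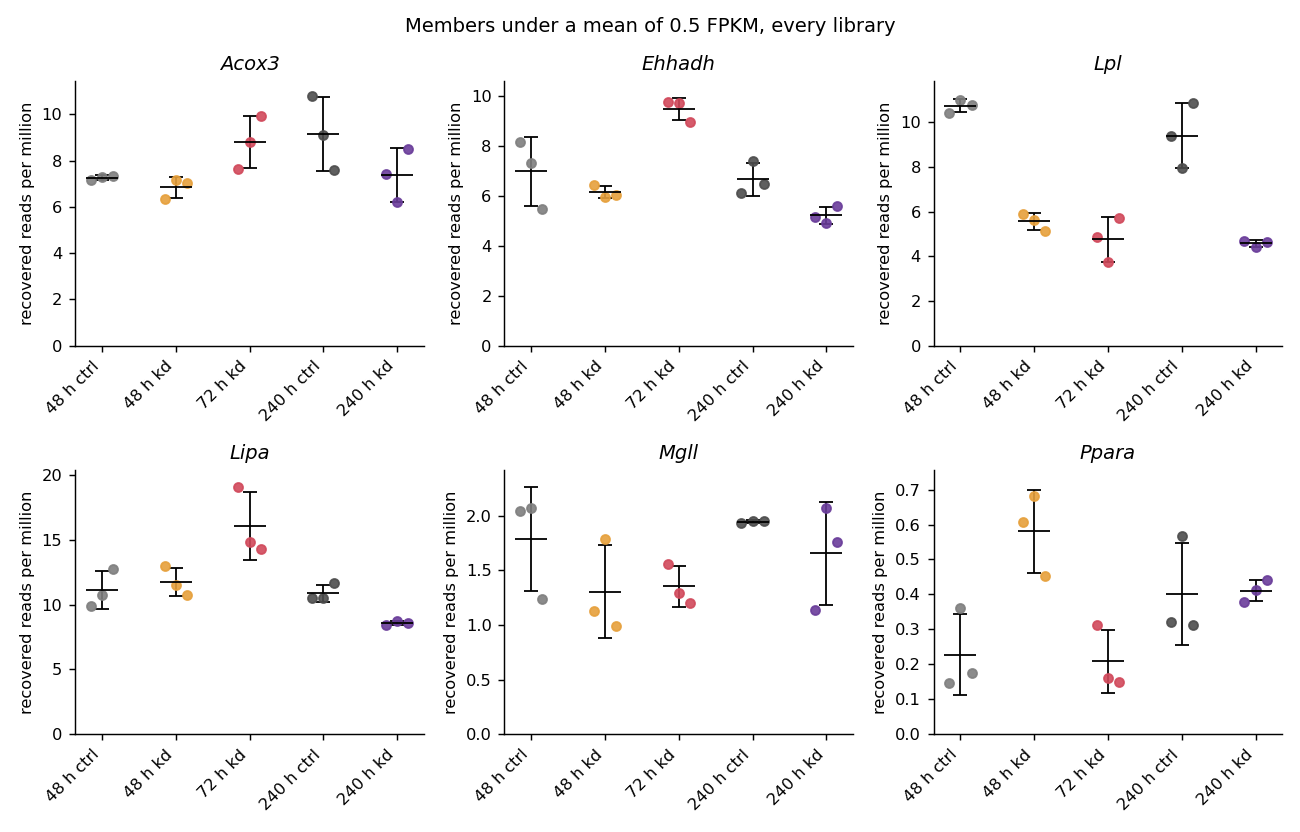
Recovered reads scaled to library size (RPM, y axis, from 0) in every library of the 5 groups (x axis) for the 6 members under 0.5 FPKM. Points are libraries, bars the mean and SD of 3. Lpl was at 9.41 to 10.7 RPM on average in the ctrl groups and at 4.58 to 5.56 in the kd groups, while Ppara stayed under 1.

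Peroxisomal oxidation and the lipases were counted as 10 members on recovered reads. At 72 h, 8 of 10 had a positive log2 change and their median was 0.27, against 0.01 over all genes. At 240 h, 9 of 10 were negative with a median of -0.28, against 0.01. Among these 9, Hsd17b4 was at 98.9% of its control mean on FPKM. Lpl and Mgll were negative at both times and Decr2 positive at both. Those called were Decr2 and Lpl at 72 h and Lpl at 240 h. Ehhadh, a peroxisomal bifunctional enzyme, had 112, 81 and 62 reads in 48 h ctrl, 125, 120 and 119 in 72 h kd. At 240 h its controls had 76, 91 and 83 reads and the knockdown libraries 68, 71 and 76. Lipa, the lysosomal acid lipase, had 136, 119 and 144 reads in 48 h ctrl, 244, 183 and 190 in 72 h kd. Its 240 h controls had 131, 129 and 149 reads and the knockdown libraries 111, 127 and 117. Scaled to library size, both genes lay above all controls at 72 h and below all controls at 240 h, Ehhadh at 4.89 to 5.58 RPM against 6.11 to 7.39 and Lipa at 8.42 to 8.75 against 10.5 to 11.6, but neither was called in either comparison. Their effects at 240 h less those at 72 h were -0.79 ± 0.20 and -0.87 ± 0.17 (limma voom interaction, adjusted p = 0.00247 and 0.000238; 18.1% of all genes were called).

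In that test Ppard and Acox3 were also called, at -0.67 and -0.58, and the Acox3 call was lost without 48 h ctrl replicate 1, 72 h kd replicate 2 or 3, 240 h ctrl replicate 1 or 2 or 240 h kd replicate 2, over a range of -0.71 to -0.45, and with 240 h ctrl as the control of 72 h kd (-0.26). Lipe, the hormone-sensitive lipase, lies entirely inside the span of the annotated gene 4732471J01Rik, and Acaa1a, the peroxisomal thiolase, inside that of Slc22a14, so their reads cannot be told apart. Mgll had 11 to 30 reads per library and was not called, and Ppara, with 2 to 8, was not tested. Echs1, Acaa2, Eci1, Eci2 and Hsd17b4 were called in no comparison.

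A wider set of 123 genes of fatty acid uptake, activation, further oxidation, lipid droplets, PPAR regulation, ketone bodies and synthesis was counted beside the members. At 48 h, limma on FPKM called 0 of 77 tested (3.99% of all genes), with 29 at an unadjusted p under 0.05 (3648 of 11420 genes), and voom on reads called 9 of 109 (9.22%), 2 higher and 7 lower. At 72 h, 7 of 77 were higher and 1 lower (13.5% of all genes called, 8.23% higher and 5.3% lower). Acot13, an acyl-CoA thioesterase, rose by 0.74 ± 0.030 and Angptl4, a secreted inhibitor of Lpl, fell by 0.66 (SE 0.12) on the log2 scale. At 240 h, limma called 5 of 72 higher and 0 lower (4.79% and 4.12% of all genes), with 45 at an unadjusted p under 0.05 (5120 of 11401 genes), and voom on reads called 7 of 109 higher and 8 lower (18% of all genes called). Slc27a2, a very-long-chain acyl-CoA synthetase, rose by 1.11 ± 0.053, Hsd17b11, a lipid droplet dehydrogenase, by 0.76 ± 0.047 and Hilpda, an inhibitor of Pnpla2, by 0.58 ± 0.10. The PPAR coactivator gene Ppargc1a had at most 1 read in any library.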

How the data were processed

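The members and gene lists were chosen with earlier results of these data known. Per the labels and methods, the authors aligned single reads to mm10 (GRCm38.p6) with STAR 2.7.0c, counted reads per gene and tested with DESeq2 1.30.0. The strand setting and the annotation used for counting are not given in the sources used here. The paper names a GENCODE release for assigning ChIP-seq peaks to genes. The deposited values are FPKM, computed over the whole gene span. Every value gave whole reads (tolerance 0.001, 100% of values); reads summed over genes exceeded library totals by 7.38% to 8.34%, so overlapping genes share reads. IDs and coordinates come from GENCODE (96.5% of genes matched).

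Genes averaging 0.5 FPKM or more were tested on log2(FPKM + 0.1) with limma 3.58.1 (R 4.3.3, trended prior, two-sided, Benjamini-Hochberg over all genes), and recovered reads of genes averaging at least 10 reads with limma voom. Fold changes on this scale understate low genes. Called members were given in every library, others by range and count; wider-list genes were named as the 3 largest called changes per direction averaging 1 FPKM or more. Scripts were tested on simulated data. Alternatives covered pseudocount, minimum, scaling, fit, control and each library left out.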

Additional observations from a re-analysis of the deposited data

Results flagged for a closer look

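The knockdown effect differed between times for 5 members, by a test of the difference itself with limma. At 240 h less 48 h, the log2 differences were -0.87 for Cpt1a, -0.93 for Fabp3, 0.91 for Fabp5 and 0.59 for Slc25a20. At 240 h less 72 h they were -1.27 for Cpt1a, -2.10 for Fabp3, 1.32 for Fabp5 and -0.59 for Acat1. The 240 h less 72 h differences rest on 48 h ctrl as the stand-in control, and both sets use the same 240 h libraries, so they are not independent of each other. Without 48 h kd replicate 2, which stood apart from its group, the 240 h less 48 h difference of Slc25a20 was 0.54 and no longer called. No member was searched for single outlying values, since each group held 3 libraries.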

How the results depend on the processing

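No log2 fold change named as called turned its sign under any alternative run. A pseudocount of 1, which shrinks the changes of low genes, gave 1 call at 48 h, 1 at 240 h, 1 for 72 h kd against 48 h kd, 3 for 240 h kd against 72 h kd and 2 for the 240 h less 48 h effect. A minimum of 2 FPKM, which left 13 or 14 members to test, gave 1 call at 48 h, 1 at 240 h, 2 for the 240 h less 48 h effect and 2 for the 240 h less 72 h effect. Recovered reads with voom gave 4 for 72 h kd against 48 h kd and 8 for the 240 h less 72 h effect, with 33 members tested, and rescaling to the same sum gave 4 for 72 h kd against 48 h kd. With the replicate number as a block, 0 members were called at 48 h (Acat1 and Fabp5 both at an adjusted p of 0.0523 in limma) and 3 for the 240 h less 48 h effect (Slc25a20 at 0.0506), and no other count changed. Same-numbered libraries correlated at -0.099 to 0.119 in their deviations, with 1 of 18 pairs over 0.1. With 3 libraries per group, these correlations cannot decide whether libraries of the same number belong together. Leaving out each library gave 2 to 4 calls for 72 h kd against 48 h kd and 6 to 7 at 72 h. Of the counts under settings other than leaving out a library, 77 of 90 stayed within 1.5 times the main count, and of single-gene values 331 of 359 kept their call, as did 309 of 330 with a library left out. The analysis of members called only on reads was added after seeing the data.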
